A study of Mus musculus with 12 samples.

Results

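The 10 cartilage matrix genes Col2a1, Col11a2, Col9a1, Col9a2, Col9a3, Acan, Hapln1, Matn1, Matn3 and Comp were followed through neonatal mouse dermis on 12 microarrays. They were taken as all probe sets annotated to exactly 1 of these symbols, which gave 17 probe sets of 34945 with a single symbol and 10 genes of 18193. The arrays were labelled P5 tail, P5 back, P1 tail and P1 back, with 3 arrays in each of these 4 groups, where P1 and P5 stand for 1 and 5 days after birth. All samples came from C57Bl6/CBA F1 mice, and the labels name no transgene or treatment. For P1 mice the methods describe tail skin loosened in EDTA and back skin loosened in a mix of dispase and trypsin. The dermis was then peeled off and digested to single cells, so body site and loosening solution cannot be told apart. The same caution is kept for P5, an age the methods do not mention. The methods describe RNA of 3 mice for the P1 arrays, and the labels give each array as a separate sample with its own replicate number. Every array is therefore named here by its labelled age, site and replicate number.

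The fibrils of hyaline cartilage are built from type II collagen with type XI collagen inside them and type IX collagen on their surface. Aggrecan fills the space between the fibrils and is held on hyaluronan by link protein, while matrilins and COMP connect these polymers. Chondrocytes switch on many of these genes under the transcription factors SOX9, SOX5 and SOX6, and cartilage is not a normal layer of the dermis. The question here was how far these genes differed between tail and back and between the ages, and whether the arrays of a group gave the same answer.

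Values are RMA log2 values centred on each probe set's median over the 12 arrays, so 0 is the middle array for that gene and a difference of 1 is 2-fold. Levels cannot be read from centred values, no gene can be ranked by amount against another, and the absence of a cell type's markers cannot be shown. In bulk dermis, fewer cells of a type and less RNA per cell cannot be told apart. P-values measure the spread between arrays of a group, pooled over all 4 groups in a fit of the 12 arrays, so that the wide spread of the P1 back arrays also enters the P5 comparison. Differences subtract the labelled back from the labelled tail arrays, or P1 from P5 arrays, with the adjusted p of limma over all 18193 genes.

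The labelled sites went against genes that mark body position. Between the labelled sites 6.91% of all genes were called at P5 and 3.97% at P1, in either direction. Of 10 measured posterior Hox genes, which pattern the rear of the trunk and the tail, 7 were lower in arrays labelled tail at P5 and 7 at P1. Their mean lay between -0.81 and -0.67 on the P5 tail arrays and between 0.71 and 0.79 on the P5 back arrays, and between -0.83 and -0.81 on the P1 tail arrays and between 0.70 and 0.83 on the P1 back arrays. In contrast, 4 of 5 trunk patterning genes were higher in arrays labelled tail at each age, and so were all 5 measured adipocyte genes at P1. The tail and back of each value below are thus those of the array labels. At P1 the study gives connective tissue and appendage development terms as higher in tail, and fat metabolism terms as higher in back. Read by these labels, the adipocyte genes at P1 ran opposite to its fat terms. Its text gives no direction for single cartilage matrix genes.

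Type II collagen, encoded by Col2a1, is the main collagen of hyaline cartilage. On the single Col2a1 probe set the values were 0.04, -0.68 and -0.54 on P5 tail arrays 2, 3 and 4, and -0.04, 0.38 and 3.77 on P5 back arrays 1, 2 and 3. They were -0.58, -0.75 and -0.58 on P1 tail arrays 4, 5 and 6, against 5.38, 0.05 and 5.23 on P1 back arrays 1, 5 and 6. Only P1 back 1, P1 back 6 and P5 back 3 were more than 1 log2 unit above the middle, while P1 back 5 stood with the P5 back arrays 1 and 2. The P1 groups did not overlap, and the difference was -4.19 ± 1.21 (SE, n = 3 each), with a limma adjusted p of 0.0839. At P5 the groups overlapped and the difference was -1.76, with an adjusted p of 0.455 in limma. The standard deviation over the P1 back arrays was 3.04 for Col2a1.

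The arrays keep the same replicate order for every gene below, 2, 3 and 4 in P5 tail, 1, 2 and 3 in P5 back, 4, 5 and 6 in P1 tail and 1, 5 and 6 in P1 back. Col11a2 codes for a chain of type XI collagen, the minor fibrillar collagen that sits within type II fibrils. Its values were -0.47, -0.27 and 0.35 on the P5 tail arrays and -0.16, 0.47 and 1.08 on the P5 back arrays. In the P1 groups they were -0.06, -0.35 and -0.17 in tail, against 1.95, 0.06 and 1.27 in back. The same 3 back arrays were thus the highest, and P1 back 5 lay just above all P1 tail arrays. The P1 difference was -1.29 ± 0.41 (SE) and missed the threshold at a limma adjusted p of 0.12, and the P5 difference of -0.59 had an adjusted p of 0.456.

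Promoters were looked up for the members in RefSeq (build GRCm38.p6), where 7 of 10 had an entry, with 8 start sites in all. Col2a1, Col9a3 and Comp had no entry. The 250 bases before the start are printed for Col11a2, the 1 member whose window holds TATA letters, and below for the 3 members called at P1. Letters found by the search stand in capitals.
Col11a2 (chr17:34038888-34039137, + strand): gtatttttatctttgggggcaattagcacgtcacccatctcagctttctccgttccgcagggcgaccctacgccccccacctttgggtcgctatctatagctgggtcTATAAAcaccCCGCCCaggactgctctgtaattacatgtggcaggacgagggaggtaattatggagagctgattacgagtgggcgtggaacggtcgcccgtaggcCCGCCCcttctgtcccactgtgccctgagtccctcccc

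A set of 4 short motifs was searched on both strands of these windows. The SOX letters ACAAAG, or CTTTGT on the other strand, were in 16.5% of all 32851 windows of the same length and in 0 of the 8 member windows. ACAATG, or CATTGT, was in 10.7% of all windows and in 0 of 8. TATAAA, or TTTATA, was in 12.4% of all and in 1 of 8, at 143 bases before the start of Col11a2. The GC box letters CCGCCC, or GGGCGG, were in 32.7% of all windows and in 5 of 8, those of Acan, Col11a2, Col9a2, Matn1 and Matn3. The TATA and GC box letters of Col11a2 do not overlap.

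**Figure D1:**
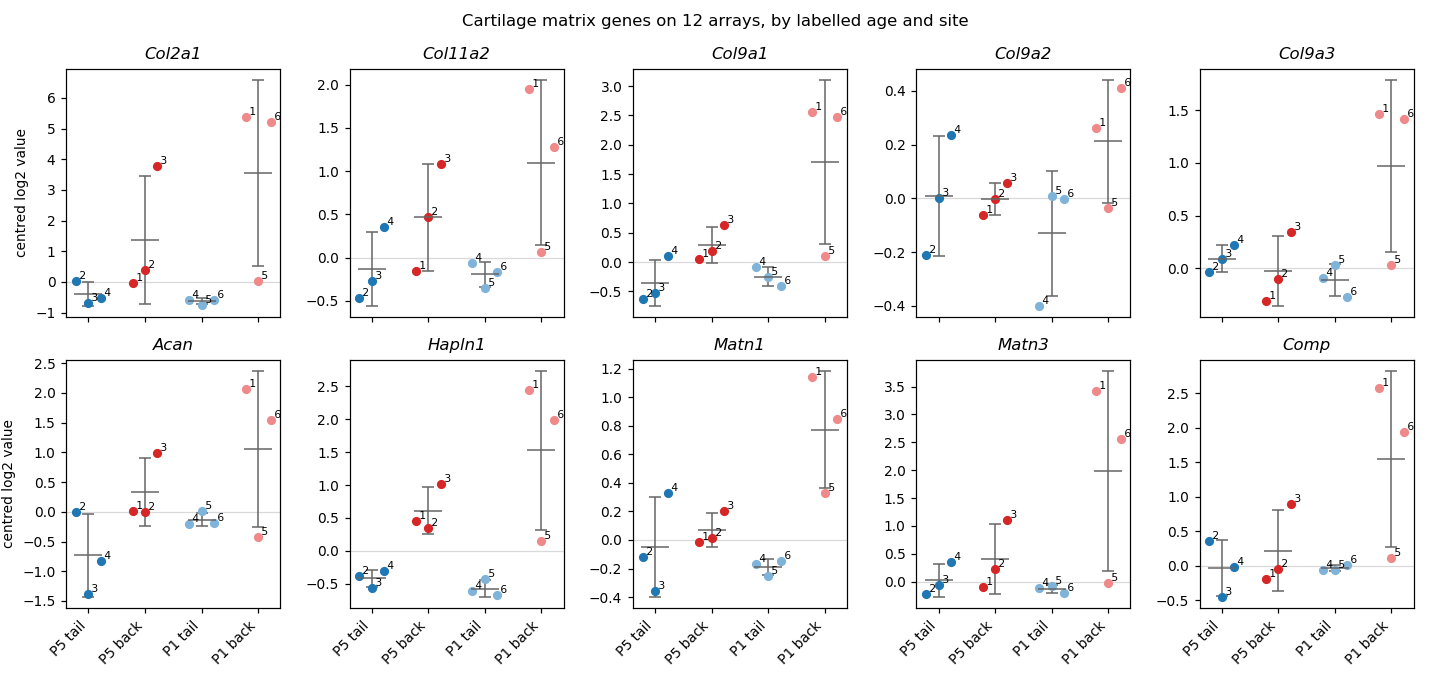
Each panel plots 1 cartilage matrix gene as centred log2 value (vertical axis, own scale per panel) for the 12 arrays, with points labelled by replicate number and grey bars giving the group mean ± SD over 3 arrays. In all 10 panels P1 back 1 and P1 back 6 are the highest pair and P5 back 3 lies above the other P5 back arrays.

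Col9a1, Col9a2 and Col9a3 code for the chains of type IX collagen, which coats type II fibrils. Col9a1 averaged -0.25 ± 0.16 in P1 tail, against 1.71 ± 1.40 in P1 back (SD, n = 3 each). Its single values were -0.08, -0.25 and -0.41 in P1 tail, against 2.55, 0.10 and 2.48 in P1 back. They were -0.62, -0.53 and 0.10 in P5 tail, compared with 0.06, 0.19 and 0.64 in P5 back. All P1 back arrays lay above all P1 tail arrays, but by little for P1 back 5. The P1 difference of -1.96 ± 0.49 (SE) passed the threshold, with a limma adjusted p of 0.0438, but not with robust variances, at 0.0832. The P5 difference was -0.64, with an adjusted p of 0.503. The window before the first of the RefSeq starts of Col9a1 holds none of the 4 motifs.
Col9a1 (chr1:24177360-24177609, + strand): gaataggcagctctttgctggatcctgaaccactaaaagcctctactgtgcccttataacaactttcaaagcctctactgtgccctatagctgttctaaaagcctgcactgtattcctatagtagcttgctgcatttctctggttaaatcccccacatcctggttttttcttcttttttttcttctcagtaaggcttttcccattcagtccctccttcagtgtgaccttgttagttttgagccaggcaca

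Both Col9a1 probe sets were highest on P1 back 1 and 6, and they differed in size. One read 1.86 and 1.36 on P1 back arrays 1 and 6 and 0.00 on P1 back 5. The other read 3.25 and 3.60 on P1 back 1 and 6 and 0.20 on P1 back 5. Only the other set passed the test on its own, with a P1 difference of -2.68 and a limma adjusted p of 0.0349 over all 45037 probe sets, against -1.23 and 0.158 for the smaller one.

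Col9a2 varied least of the members. Its values were -0.21, 0.00 and 0.23 in P5 tail, compared with -0.06, 0.00 and 0.06 in P5 back. In the P1 groups they were -0.40, 0.01 and 0.00 in tail, against 0.26, -0.04 and 0.41 in back. P1 back 1 and 6 were still the highest pair, but P1 back 5 lay among the tail arrays and the groups overlapped. The P1 difference was -0.34 ± 0.15 (SE), with a limma adjusted p of 0.324, and the P5 difference was 0.01, with an adjusted p of 0.978.

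Col9a3 had values of -0.03, 0.08 and 0.22 in P5 tail, compared with -0.31, -0.10 and 0.34 in P5 back. In the P1 groups it had -0.09, 0.03 and -0.28 in tail, against 1.46, 0.03 and 1.42 in back. Here too the high P1 back pair stood apart and P1 back 5 lay level with P1 tail 5, so that the groups overlapped. The P1 difference was -1.08 ± 0.30 (SE), with a limma adjusted p of 0.075, and at P5 it was 0.11, with an adjusted p of 0.877. These gene values average 3 probe sets that disagree. One set reached 2.97 and 3.10 on P1 back 1 and 6, and another reached 1.42 and 1.18, whereas the remaining one read 0.00 and -0.03 there and varied by only 0.67 over the 12 arrays. The suffix of the flat set (_x_at) marks possible shared sequence with other transcripts.

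Aggrecan, from Acan, is the large sulphated proteoglycan that gives cartilage its resistance to compression. Acan values were 0.00, -1.37 and -0.83 in P5 tail, compared with 0.01, 0.00 and 1.00 in P5 back. P1 tail arrays had -0.20, 0.01 and -0.20, against 2.06, -0.43 and 1.54 on P1 back arrays. For this gene P1 back 5 lay below every P1 tail array, so the P1 groups overlapped. The P1 difference was -1.19 ± 0.52 (SE), with a limma adjusted p of 0.319, and the P5 difference was -1.07, with an adjusted p of 0.281.

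Link protein, from Hapln1, locks aggrecan onto hyaluronan. It separated the labelled sites at both ages. Hapln1 was at -0.39, -0.57 and -0.31 in P5 tail, all below the 0.45, 0.35 and 1.02 of P5 back. It was at -0.62, -0.44 and -0.67 in P1 tail, all below the 2.44, 0.15 and 1.99 of P1 back. On P1 back 5 it was thus lower than on any P5 back array but above all 6 tail arrays. Averages were -0.58 ± 0.12 in P1 tail, against 1.53 ± 1.21 in P1 back (SD, n = 3 each), and the difference of -2.10 ± 0.42 (SE) passed the threshold, with a limma adjusted p of 0.0128. At P5 the difference of -1.03 had an unadjusted p of 0.0306 and an adjusted p of 0.19 in limma. It passed at P5 when only the P5 arrays were fitted, at an adjusted p of 0.0158, where the spread of the P1 arrays does not enter. All 4 Hapln1 probe sets passed at P1, with differences of -2.21, -1.53, -2.57 and -2.09. The window before the Hapln1 start, printed as that of a called member, holds none of the 4 motifs.
Hapln1 (chr13:89540386-89540635, + strand): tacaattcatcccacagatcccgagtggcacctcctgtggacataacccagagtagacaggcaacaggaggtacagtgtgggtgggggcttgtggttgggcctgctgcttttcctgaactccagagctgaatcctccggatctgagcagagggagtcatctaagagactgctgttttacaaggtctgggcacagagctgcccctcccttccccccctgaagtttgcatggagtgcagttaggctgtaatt

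Matrilin-1 and matrilin-3, from Matn1 and Matn3, are adaptor proteins that link collagen fibrils and proteoglycans. Matn1 had -0.12, -0.36 and 0.33 in P5 tail, compared with -0.01, 0.01 and 0.21 in P5 back, where the groups overlapped. It had -0.17, -0.26 and -0.15 in P1 tail, against 1.14, 0.33 and 0.85 in P1 back, where P1 back 5 also lay clear of the tail arrays. P1 means were -0.19 ± 0.06 in tail, against 0.77 ± 0.41 in back (SD, n = 3 each). The P1 difference of Matn1 was -0.96 ± 0.20 (SE), with a limma adjusted p of 0.0144, and its P5 difference was -0.12, with an adjusted p of 0.791. In the Matn1 window the GC box letters lie 206 bases before the start.
Matn1 (chr4:130944135-130944384, + strand): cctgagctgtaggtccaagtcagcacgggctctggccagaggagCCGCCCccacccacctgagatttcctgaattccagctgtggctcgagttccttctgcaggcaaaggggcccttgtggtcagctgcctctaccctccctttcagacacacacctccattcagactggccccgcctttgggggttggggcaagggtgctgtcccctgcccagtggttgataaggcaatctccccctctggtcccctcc

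Matn3 had -0.21, -0.06 and 0.36 in P5 tail, compared with -0.10, 0.22 and 1.10 in P5 back. It had -0.11, -0.07 and -0.20 in P1 tail, against 3.43, -0.03 and 2.56 in P1 back. After Col2a1 this was the member with the largest gap inside the P1 back group, 3.45 between arrays 1 and 5. Both Matn3 probe sets showed it, and the P1 difference of -2.11 ± 0.63 (SE) had a limma adjusted p of 0.0972. At P5 the difference was -0.38, with an adjusted p of 0.789.

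COMP, cartilage oligomeric matrix protein, is a member of the thrombospondin family that binds collagens and is also made in tendon. Comp values were 0.36, -0.45 and -0.02 in P5 tail, compared with -0.19, -0.05 and 0.89 in P5 back. P1 tail arrays had -0.07, -0.06 and 0.02, against 2.58, 0.11 and 1.94 on P1 back arrays. The 3 P1 tail arrays were nearly equal for Comp (SD 0.05), while the P1 back arrays had an SD of 1.28. The P1 difference was -1.58 ± 0.48 (SE), with a limma adjusted p of 0.106, and the P5 difference of -0.25 had an adjusted p of 0.822.

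Across the members at P1, 3 of 10 were lower in arrays labelled tail by the limma test, which were Hapln1, Matn1 and Col9a1, and none was higher. Of all genes tested 1.91% were called lower and 3.97% were called in either direction. All 10 members had a difference below 0, with a median of -1.44 against -0.04 over all genes, and all 10 had an unadjusted p under 0.05 in limma, against 2 in the methods' t-test. The share of all genes with an unadjusted limma p under 0.05 was not counted, here or in the comparisons below. All 10 members were highest on the same arrays, P1 back 1 and 6. Their p-values in comparisons with these arrays are thus not 10 separate results. The arrays of the P1 groups did not overlap for 7 of 10 members, compared with 17.6% of all genes in that direction. Of the 17 member probe sets 6 were called, 4 of Hapln1 and 1 each of Matn1 and Col9a1, against 1.15% of all probe sets called lower.

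These calls rested on which P1 arrays were in the fit. Without P1 back 5 the count was 9 of 10, with only Col9a2 not called. P1 back 5 was the low array of its group for the members, so its removal by itself favours such calls. The count was 1 without P1 back 1, 0 without P1 back 6, 0 without P1 tail 6, and 2 without P1 tail 4 or P1 tail 5. Over all genes the calls numbered 471 without P1 back 5 and between 385 and 789 without any other P1 array. For Hapln1 the adjusted p was 2.3e-05 without P1 back 5, 0.0713 without P1 back 6 and 0.0577 without P1 tail 6. For Matn1 it was 0.00376 without P1 back 5, and 0.0643, 0.0698 and 0.0517 without P1 back 1, P1 back 6 and P1 tail 6. Col9a1 passed only without P1 back 5, at 4.48e-05, and lay between 0.0908 and 0.208 without any other P1 array. With all 12 arrays but unequal array weights 8 members passed, where the calls over all genes numbered 3650 against 722 in the unweighted fit. With the P1 arrays alone 1 member passed, among 932 calls over all genes. With robust variances 2 members passed, Hapln1 and Matn1. No member passed the methods' t-test after adjustment. By size alone, the P1 differences of all members but Matn1 (-0.96) and Col9a2 (-0.34) were at least 2-fold.

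**Figure D2:**
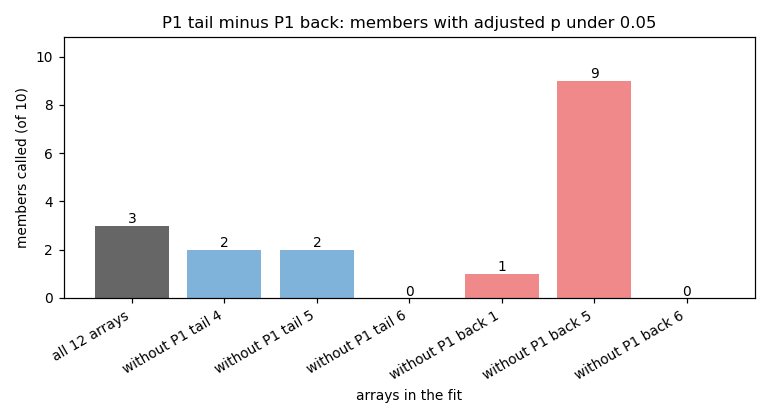
Bars give the number of the 10 cartilage matrix genes with a limma adjusted p under 0.05 for P1 tail minus P1 back, with all 12 arrays (grey) and with 1 P1 tail (blue) or P1 back (red) array left out. The count is 3 with all arrays, 9 without P1 back 5 and 0 without P1 tail 6 or P1 back 6. P1 back 5 is the low array of its group for these genes, so leaving it out by itself favours calls.

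In the comparison of P5 tail with P5 back no member was called, against 6.91% of all genes. One member, Hapln1, had an unadjusted p under 0.05 in limma, and 1 member did in the methods' t-test. Differences ran between -1.76 and 0.11, with 8 of 10 below 0 and a median of -0.49 over the members, against -0.02 over all genes. Only the Hapln1 arrays did not overlap, compared with 9.58% of all genes in that direction. The count was 0 each time 1 of the P5 arrays was left out.

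**Figure D3:**
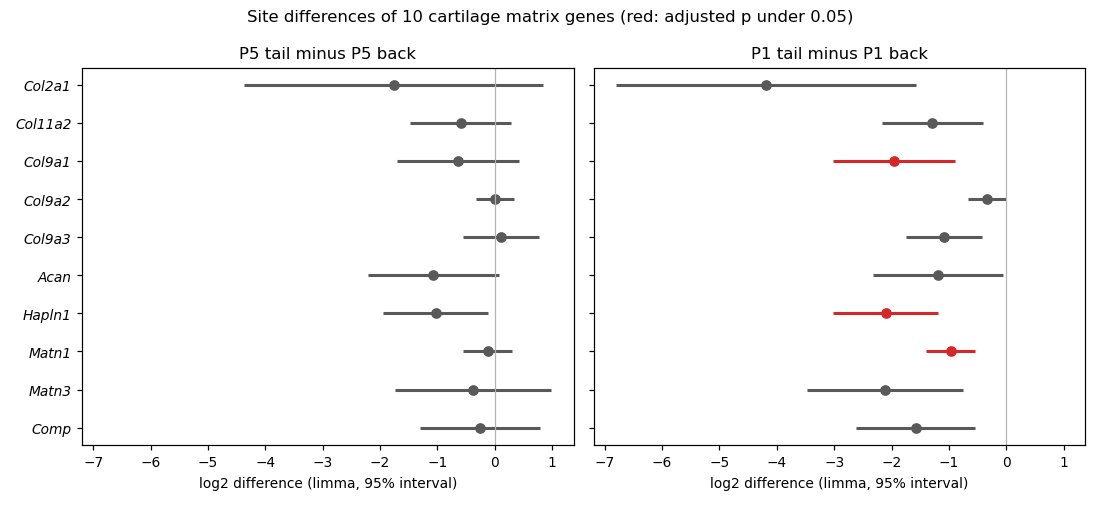
Points are limma log2 differences of labelled tail minus labelled back for each cartilage matrix gene at P5 (left) and P1 (right), with lines giving 95% confidence intervals from the 12-array fit. At P1 all 10 points lie below 0 and Col9a1, Hapln1 and Matn1 (red) have an adjusted p under 0.05, while at P5 none has.

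Between the ages, the back arrays differed more than the tail arrays in size, but neither gave a call. For P5 back minus P1 back, 0 of 10 members passed in limma, against 4.25% of all genes, 6 had an unadjusted p under 0.05 there, and 1 did in the methods' t-test. All 10 differences were below 0, with a median of -0.96, and the largest were -2.18 for Col2a1, -1.58 for Matn3 and -1.42 for Col9a1. The lowest adjusted p was 0.0696, for Matn1, whose P5 back arrays all lay below its P1 back arrays. Matn1 was the only member whose back arrays did not overlap, compared with 13.6% of all genes in that direction. Without P1 back 5, a removal that by itself favours member calls, the count became 7 of 10. The calls over all genes then went to 447, against 773 with all arrays. With unequal array weights the count of members was 1, Matn1, among 2136 calls over all genes.

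For P5 tail minus P1 tail 0 members passed, against 5.30% of all genes, and none had an unadjusted p under 0.05 in limma or in the methods' t-test. The differences lay between -0.60 for Acan and 0.24 for Col2a1, with a median of 0.14. Each age comparison uses the same arrays as the site comparisons. The site difference at P5 minus that at P1 was above 0 for all 10 members, with a median of 1.14, but 0 passed in limma, against 2.87% of all genes, and 2 had an unadjusted p under 0.05. These were Matn1 at 0.85 and Col9a3 at 1.20, with adjusted p of 0.149 and 0.198. Without P1 back 5 the count of members passed was 5, among 272 calls over all genes, against 522 with all arrays. Leaving out this low array by itself favours such member calls.

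The highest arrays were the same for nearly every member, whereas the order of the lower ones varied. P1 back 1 and 6 were the highest pair of the 12 arrays for 10 of 10 members, with P1 back 1 the highest for 9. P5 back 3 came next for 8 members and lay above the other P5 back arrays for all 10. The lowest array was a tail array for 9 members, but not the same tail array. Against the mean of the other 2 arrays of its group, P1 back 5 was at least 2-fold lower for 8 of 10 members, with a median of -2.10, where 0.352% of all genes were that much lower. P1 back 1 was at least 2-fold higher for 7 members, against 0.192% of all genes, and P5 back 3 for 3 members, Col2a1, Matn3 and Comp, against 0.396%. The members were chosen with earlier results of these data known, and are shown by array because single arrays stand out. These counts, and the gaps and spreads given next, therefore describe the split and do not test it.

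The gap inside the back groups differed by member. Between P1 back 1 and P1 back 5 it was 5.34 for Col2a1, 3.45 for Matn3, 2.49 for Acan, 2.47 for Comp, 2.45 for Col9a1 and 2.29 for Hapln1. It was 1.89 for Col11a2 and 1.43 for Col9a3, and only 0.81 for Matn1 and 0.30 for Col9a2. P1 back 6 minus P1 back 5 gave smaller gaps for all but Col9a2, with 5.18 for Col2a1. P5 back 3 exceeded the mean of the other P5 back arrays by 3.60 for Col2a1 and 1.04 for Matn3, but by 0.09 for Col9a2. The SD over the P1 back arrays was at or above the 99.7th percentile of all genes for 8 members, at 98.9 for Matn1 and at 92.4 for Col9a2.

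Sox9 and Sox6, of the transcription factors that drive these genes, did not show the split of the back arrays. Sox9 was at -0.08, 0.06 and 0.01 on P1 back 1, 5 and 6, and Sox6 was at 1.16, 1.26 and 1.06 there. P1 back 5 was thus slightly the highest of the 3 for both genes. Sox6 was lower in P1 tail than in P1 back, at a difference of -1.32 with a limma adjusted p of 5.63e-05, and Sox9 differed by -0.03, with an adjusted p of 0.936. At P5 Sox9 was higher in tail by 1.05, with an adjusted p of 5.87e-05 in limma, at 0.82, 0.58 and 0.62 in P5 tail, against -0.47, -0.26 and -0.41 in P5 back. Of the 6 cartilage transcription factors measured 2 were lower at P1, Sox6 and Pax9, a factor of the vertebral column and its discs. At P5 Pax9 was lower and Sox9 was higher in tail. Of all genes 3.97% were called at P1 and 6.91% at P5, in either direction. Pax9 was at 0.96, 0.52 and 0.76 on P1 back 1, 5 and 6, and Pax1, another factor of the vertebral column, at 0.33, 0.04 and 0.26. For both of these P1 back 5 was the lowest of its group and P5 back 3 the highest of its own, with gaps under 0.5. Nkx3-2 and Sox5 did not follow that order. On P1 back 1, 5 and 6 Nkx3-2 was at -0.05, 0.12 and 0.00 and Sox5 at -0.15, -0.22 and -0.32. On P5 back 1, 2 and 3 they were at 0.00, 0.30 and 0.03 and at 0.18, 0.03 and -0.11.

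Other genes of cartilage were given by lists. Their counts stand beside 3.97% of all genes called at P1 and 6.91% at P5, in either direction. Of 12 other matrix and secreted cartilage genes measured, 2 were lower in P1 tail and none was higher, with 12 of 12 differences below 0 and a median of -0.68. Those called were Cnmd, which codes for chondromodulin, an inhibitor of vessel growth, at -2.49 with a limma adjusted p of 0.0407, and Matn4 at -0.62 with 0.0419. Cnmd was at 3.72, 0.35 and 3.10 on P1 back 1, 5 and 6, with the same split as the members, while Matn4 was at 0.20, 0.00 and 0.02 there and had none. At P5 Matn4 was lower in tail, at -0.57 with an adjusted p of 0.0436, and Scrg1 was higher by 0.84, with 0.0239. No growth plate maturation gene of 6 was called at P1, and Panx3, a channel protein of maturing chondrocytes, was higher at P5 by 0.80, with an adjusted p of 0.00327. Among 6 genes of glycosaminoglycan synthesis and sulphation 1 was higher at P1 and 0 at P5, and among 4 cartilage matrix proteases 1 was higher at P1 and 1 lower at P5.

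The genes whose pattern lay nearest to the members were found by the root mean square difference from the members' mean profile over 12 arrays. In order they were Ucma (0.23), Ecrg4 (0.37), Epyc (0.43), Thbs4 (0.44), Ccn3 (0.47), P4ha3 (0.47), Uts2r (0.48), Kcnc2 (0.51), Tnmd (0.53) and Cnmd (0.54), where the median of all other genes was 0.96. Ucma codes for a small secreted protein of cartilage and was at 2.03, 0.01 and 2.40 on P1 back 1, 5 and 6. Epyc, which codes for epiphycan, a proteoglycan of the growth plate, was at 2.11, 0.01 and 0.62 there. The nearest profiles were not all of cartilage. Thbs4 and Tnmd belong to the tendon list, and were at 2.47, -0.14 and 1.83 and at 2.17, 0.12 and 1.64 on these arrays. Ecrg4, Ccn3, P4ha3, Uts2r and Kcnc2 were in none of the gene lists used here. The measure depends on the size of the swings, so that Comp (0.22) and Col9a1 (0.25) lay near the mean of the members and Col2a1 (1.54) lay far from it.

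**Figure D4:**
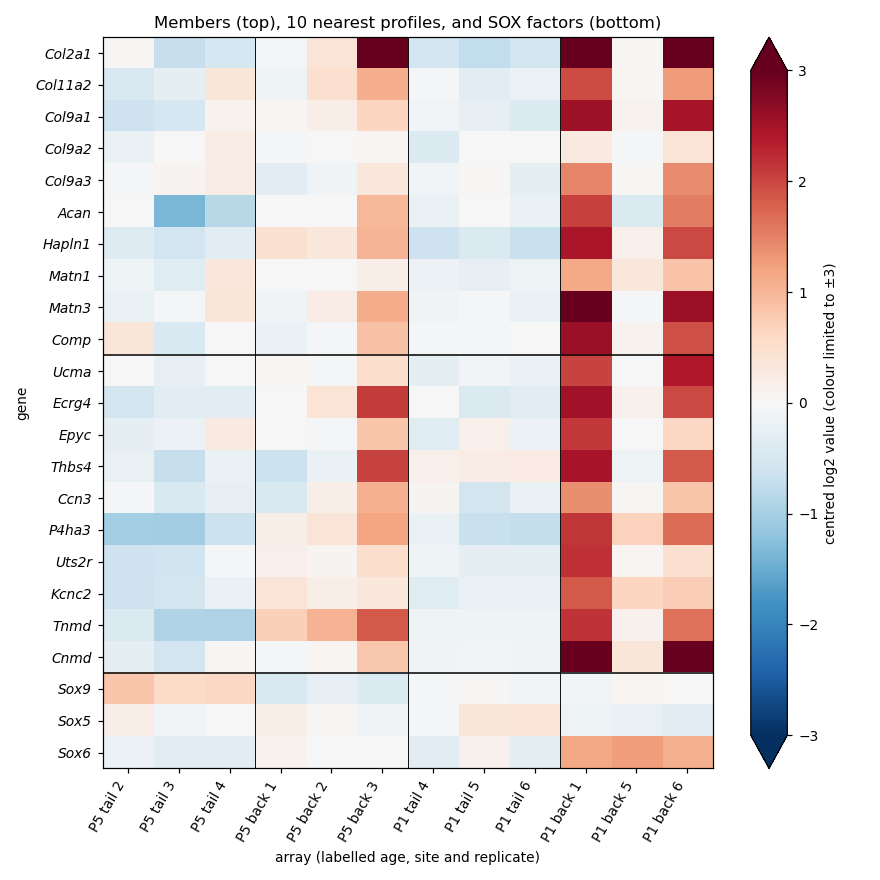
Colours give centred log2 values (limited to ±3) of the 10 cartilage matrix genes (top block), of the 10 genes nearest to their mean profile (middle) and of Sox9, Sox5 and Sox6 (bottom) on each of 12 arrays. P1 back 1 and P1 back 6 are the red columns of the upper blocks for most genes, and P5 back 3 is red for some of them only. Col9a2 stays pale on every array. P1 back 5 is near 0 for most members, while Sox6 is high on all P1 back arrays.

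Genes of other tissues moved on the same arrays. The mean of 6 tendon genes was 0.17, 0.52 and 1.74 in P5 back and 2.15, 0.11 and 1.57 in P1 back, in the order of the members. It ran between -0.53 and -0.07 in P5 tail and between -0.67 and -0.59 in P1 tail. Kera, which codes for keratocan and is expressed in tendon, was at 3.86, 0.06 and 3.16 on P1 back 1, 5 and 6, and Scx, the transcription factor that marks tendon cells, was at 0.18, -0.05 and 0.04. Of the 6 tendon genes 2 were lower in tail at P1 and 3 at P5, against 3.97% and 6.91% of all genes called in either direction.

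The mean of 10 skeletal muscle genes was -1.98, -1.84 and 1.31 in P5 back and 0.70, -1.97 and 1.11 in P1 back. On P1 back 5 the muscle genes were at least 2-fold below the mean of the other P1 back arrays for 8 of 10, against 0.352% of all genes. On P5 back 3 they were at least 2-fold higher for 8 of 10, against 0.396% of all genes. Muscle genes were also high in P1 tail, at 2.05, 0.93 and 0.63 on arrays 4, 5 and 6, where the mean of the 10 cartilage matrix genes was -0.24, -0.21 and -0.26. Genes of epidermis and fat differed as well. Of 6 keratinocyte genes 2 were lower in P1 tail, Krt2 at -7.57 and Krt5 at -0.59, and all 6 were lower in P5 back than in P1 back, with a median of -1.26. Of 5 adipocyte genes 4 were higher in P5 back than in P1 back, with a median of 1.54. Of all genes 4.25% were called between the back groups, in either direction. The keratinocyte mean was 1.20, 1.44 and 1.46 and the adipocyte mean -1.71, -1.63 and -1.60 on P1 back 1, 5 and 6. Neither split these P1 arrays like the members. On P5 back 1, 2 and 3 the keratinocyte mean was -0.64, -0.16 and 0.05, and the adipocyte mean -0.54, 0.05 and -0.08. All 6 keratinocyte genes were higher on P5 back 3 than the mean of the other P5 back arrays, where the median over all genes was -0.01. Between the P5 sites 3 keratinocyte genes were higher in tail, 1 was lower, and no adipocyte gene was called. The part of tendon, muscle, epidermis or fat in the differences of the cartilage genes was not tested. Of 6 bone genes measured 1 was lower in P1 tail and none differed by the test at P5.

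**Figure D5:**
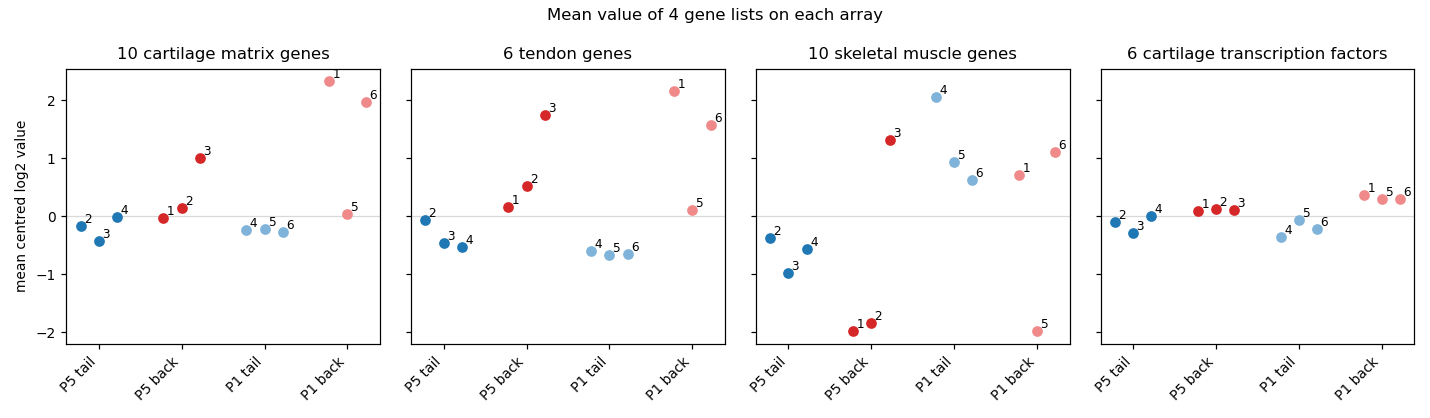
Each point is the mean centred log2 value of a gene list on 1 array, labelled by replicate number, for the 10 cartilage matrix genes, 6 tendon genes, 10 skeletal muscle genes and 6 cartilage transcription factors. P1 back 1 and 6 and P5 back 3 are the highest arrays for cartilage matrix, and within the back groups they are also the highest for tendon and muscle while the mean of the transcription factors varies little within them.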

How the data were processed

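RNA of neonatal dermis was measured on 12 Affymetrix MG430.2A arrays. In GeneSpring the authors applied RMA, which yields log2 values. The deposited table has 45101 probe sets, and the median of each over all arrays is 0. Log base and centring are not given in the sources used here and were read from the values. The methods' removal of weakly expressed genes could not be repeated without levels. After 64 control probe sets were left out, 45037 were tested, and the 34945 with 1 symbol in the platform annotation were averaged into 18193 genes. All 12 arrays were fitted in 4 groups with limma 3.58.1 in R 4.3.3, with Benjamini-Hochberg adjustment over all genes and a threshold of 0.05, for 5 comparisons. Groups came from the array labels. No depth applies to arrays, and their number limits the precision. Alternatives were robust variances, array weights, median centring, fewer arrays, other probe set rules, the methods' t-test and replicate numbers as a block. The named genes were all 10 members, up to 4 genes of each list with the largest site difference, and the 10 nearest profiles. All measured cartilage transcription factors and Krt5 were also named. Krt5 and some of these factors fall outside that rule. Scx, Matn4 and Scrg1 were named after their values were seen. The members and lists were chosen with earlier results of these data known.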

Additional observations from a re-analysis of the deposited data

Results flagged for a closer look

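For 3 genes of the cartilage lists the site difference changed with age in the limma interaction test, which called 2.87% of all genes. They were 2 of 6 cartilage transcription factors and 1 of 6 growth plate maturation genes. No call came from 12 other matrix and secreted cartilage genes, 6 of glycosaminoglycan synthesis and sulphation or 4 matrix proteases. Nor did any come from 6 tendon, 6 bone or 10 skeletal muscle genes. Values are the tail minus back difference at P5 minus that at P1. Sox9 gave 1.08 (SE 0.14), with an adjusted p of 0.00203. Sox6 gave 1.02 (SE 0.17), with an adjusted p of 0.00776. Panx3 gave 0.84 (SE 0.19), with an adjusted p of 0.0344. All 3 values were above 0, and none of the 10 cartilage matrix genes passed the same test. Calls were not limited to cartilage lists, with 4 of 6 keratinocyte genes called above 0 and all 5 adipocyte genes called below 0. With 3 arrays in a group, single arrays far from the others of their group were not looked for by an outlier test.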

How the results depend on the processing

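The count of 3 cartilage matrix genes lower in P1 tail moved with the fit. Array weights gave 8, a fit of the compared arrays alone gave 1, and there were 0 in the methods' t-test and with 3 arrays left out (P1 back 1 and 6 and P5 back 3, a choice made after seeing the data, on the members' own values, which by itself favours the loss of these differences). It ran between 0 and 9 with 1 array left out, and its 6 probe sets between 0 and 15. The replicate number as a block took the count of 3 to 0 and the P1 calls over all genes from 722 to 253. Arrays of the same number were correlated at 0.26 and -0.01 at P1 and at 0.17 and -0.02 at P5. Those of different numbers ran from -0.34 to 0.38 at P1 and from -0.13 to 0.09 at P5. So few same-numbered arrays cannot show whether the numbers mark pairs. They were not read as pairs in the main fit, and no block could be fitted between ages. At P5 the count of 0 became 1 with only the arrays compared and 1 with the 3 arrays left out. For P5 back minus P1 back the 0 became 1 with array weights and ran between 0 and 7 with 1 array left out, and that of probe sets between 0 and 12. For the interaction these ran between 0 and 5 and between 0 and 8. Over all genes, P1 site calls numbered 722, against 3650 with array weights, 6 in the t-test and 85 with the 3 arrays left out. At P5 they numbered 1257, against 662, 24 and 433, and 713 with only the arrays compared. Between ages 773 calls in back became 2136, 10 and 17, and 1526 with only the arrays compared, and 964 in tail became 433, 0 and 459, and 315. The 522 interaction calls became 231 with the block and 44 with the 3 arrays left out.

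Some differences changed sign, none of them called in the fit of all arrays. With the 3 arrays left out, Acan was 0.30 at the P1 site comparison and Comp 0.085 at P5. For P5 back minus P1 back, Col2a1 was then 0.13, Col11a2 0.093, Col9a1 0.025, Col9a2 0.0052, Acan 0.43, Hapln1 0.25 and Matn3 0.087, and for the interaction Col11a2 was -0.028, Col9a1 -0.13, Acan -1.03 and Hapln1 -0.10. With the replicate block, Col9a2 was -0.13 and Col9a3 -0.10 at P5, and the interaction was -0.22 for Col11a2 and -0.53 for Acan. With array weights, P5 tail minus P1 tail was 0.029 for Col9a1 and -0.15 for Comp, and the interaction of Acan was -0.017. With each array centred on its median, Comp was -0.0019 between the tail groups. With 1 array left out, the P5 site difference ran from -0.10 to 0.12 for Col9a2, from -0.029 to 0.30 for Col9a3, from -0.31 to 0.036 for Matn1 and from -0.45 to 0.085 for Comp. Between the tail groups it ran from -0.18 to 0.24 for Col11a2, from -0.33 to 0.035 for Col9a1, from -0.048 to 0.29 for Matn1, from -0.0095 to 0.28 for Matn3 and from -0.20 to 0.21 for Comp. The interaction of Acan ran from -0.38 to 0.86. The cause of these changes was not tested. The filter on weakly expressed genes and a trend with level were not run, since centred values hold no levels.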
